A study of Mus musculus with 20 samples.

Results

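H3K27me3 peaks of Jmjd3-/- cells at day 5 of reprogramming were compared between 2 chromatin immunoprecipitation sequencing (ChIP-seq) libraries, 1 from cells given a FLAG control vector and 1 from cells given JMJD3. The members were all 5643 peaks of the FLAG library and all 6539 peaks of the JMJD3 library, 12182 of the 53171 H3K27me3 peaks that the 10 H3K27me3 libraries of the series hold. A peak that overlapped a peak of the other library by at least 1 bp was called shared, and the rest were called FLAG-only or JMJD3-only.

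Both groups were Jmjd3-/- mouse embryonic fibroblasts (MEFs) of strain C57Bl6J, transduced with OSKM, the reprogramming factors Oct4, Sox2, Klf4 and c-Myc, in medium with vitamin C, and the labels presume them to be intermediate pluripotent reprogrammed cells. The vector field of the labels reads lentiviral while their protocol describes retroviral pMXs vectors. Per the study's methods the JMJD3 vector carries the full-length mouse enzyme with a FLAG tag. The comparison asks how the called peaks and their ranks differ when cells without the enzyme are given it back. Peak numbers and ranks within a list do not measure the amount of the mark, and its amount was not tested here. The paper, which used a spike-in for normalisation, reports that the added enzyme lowered the signal of the mark in these knockout cells at this time point. More peaks or a higher rank with JMJD3 therefore do not show a gain of the mark. Each group is 1 library, so no test against replicate spread was possible. Shares carry 95% Wilson intervals and differences between shares Newcombe intervals. They reflect the number of peaks alone, which are not independent where they lie side by side.

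H3K27me3, trimethylation of lysine 27 of histone H3, is written by Polycomb repressive complex 2 and found on silent genes, above all on CpG-rich promoters of developmental regulators such as the Hox clusters. JMJD3, encoded by Kdm6b, and its relative UTX remove the methyl groups. In fibroblasts the mark is found on many epithelial and pluripotency genes that are switched on during reprogramming.

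Of the FLAG peaks, 1907 (33.8%, interval 32.6 to 35.04) had no overlapping JMJD3 peak, and of the JMJD3 peaks, 2810 (43.0%, interval 41.8 to 44.2) had no overlapping FLAG peak. With the JMJD3 list shortened to the length of the FLAG list by score these shares were 36.6% and 37.3%. The shared part was 3736 peaks in the FLAG library and 3729 in the JMJD3 library. The peaks of 1 library only were the weaker ones by the peak caller's score, whose scale is not stated and which is used here only within a list. In the FLAG library the median score was 8.39 for FLAG-only and 17.8 for shared peaks. In the JMJD3 library it was 8.75 for JMJD3-only and 23.9 for shared peaks. The scores ran from 6.59 to a ceiling of 200.0, reached by 3 FLAG and 33 JMJD3 peaks, and the highest JMJD3-only peak had 87.3. The lists themselves hold no read numbers. Those given elsewhere in the study were not used here, and the part of sequencing depth in the differences was not tested.

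The classes differed in the sequence beneath them, and the windows printed here show that difference. Each is the central 300 bp of a peak, outside annotated exons, on the plus strand of GRCm38, with CpG dinucleotides in capitals. The first pair are the FLAG-only and JMJD3-only peaks closest to the median observed over expected CpG of their class.

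FLAG-only, chr13:111990488-111990787, over 50 kb from any protein-coding TSS: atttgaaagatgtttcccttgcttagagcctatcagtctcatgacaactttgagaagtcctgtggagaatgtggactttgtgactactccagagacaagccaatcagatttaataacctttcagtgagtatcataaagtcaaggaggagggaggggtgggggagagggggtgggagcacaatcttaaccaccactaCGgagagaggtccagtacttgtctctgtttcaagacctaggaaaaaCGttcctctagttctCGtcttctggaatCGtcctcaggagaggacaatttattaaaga
JMJD3-only, chr13:56235854-56236153, nearest protein-coding TSS Neurog1 at 16159 bp: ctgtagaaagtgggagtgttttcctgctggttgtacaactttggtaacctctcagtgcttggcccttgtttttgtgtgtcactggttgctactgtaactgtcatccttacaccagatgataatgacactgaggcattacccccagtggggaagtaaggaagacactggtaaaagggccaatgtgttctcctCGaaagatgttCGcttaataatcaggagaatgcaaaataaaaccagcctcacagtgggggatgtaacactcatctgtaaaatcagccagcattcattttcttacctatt

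The FLAG-only window holds 4 CpG dinucleotides and the JMJD3-only window 2. The other 4 windows belong to genes on which the comparison turns. Bmi1 had the best FLAG-only peak outside chromosome Y, Ebf2 the best JMJD3-only peak, and the shared peaks at Nr5a2 and Lhx9 changed rank strongly in opposite directions.

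Bmi1, FLAG-only, intron, chr2:18678661-18678960: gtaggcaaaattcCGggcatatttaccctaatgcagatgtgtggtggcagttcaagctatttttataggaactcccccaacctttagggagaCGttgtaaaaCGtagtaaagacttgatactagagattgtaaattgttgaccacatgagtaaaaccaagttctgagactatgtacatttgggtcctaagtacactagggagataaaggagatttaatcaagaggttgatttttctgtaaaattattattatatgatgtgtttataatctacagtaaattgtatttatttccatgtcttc
Ebf2, JMJD3-only, intron, chr14:67236498-67236797: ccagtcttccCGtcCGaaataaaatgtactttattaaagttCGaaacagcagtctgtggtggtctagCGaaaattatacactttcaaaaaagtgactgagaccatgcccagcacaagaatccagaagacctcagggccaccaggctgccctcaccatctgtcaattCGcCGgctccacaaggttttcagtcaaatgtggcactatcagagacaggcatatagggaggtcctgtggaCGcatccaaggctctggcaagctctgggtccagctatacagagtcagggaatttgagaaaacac
Nr5a2, shared, intron, chr1:136952468-136952767: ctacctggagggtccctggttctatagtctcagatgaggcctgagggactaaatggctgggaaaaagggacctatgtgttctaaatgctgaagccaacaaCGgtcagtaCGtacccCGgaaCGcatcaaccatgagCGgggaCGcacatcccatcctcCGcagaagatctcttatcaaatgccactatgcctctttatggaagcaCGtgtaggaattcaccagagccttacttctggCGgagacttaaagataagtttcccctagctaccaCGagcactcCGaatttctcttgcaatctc
Lhx9, shared, intron, chr1:138848118-138848417: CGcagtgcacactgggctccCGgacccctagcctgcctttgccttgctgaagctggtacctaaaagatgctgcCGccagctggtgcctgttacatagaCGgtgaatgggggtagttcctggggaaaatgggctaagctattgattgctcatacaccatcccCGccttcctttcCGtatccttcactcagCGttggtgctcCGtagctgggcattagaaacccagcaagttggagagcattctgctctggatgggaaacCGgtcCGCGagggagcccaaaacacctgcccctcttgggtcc

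The Nr5a2 and Lhx9 windows hold 11 CpG dinucleotides each, the Ebf2 window 7 and the Bmi1 window 3. Over whole peaks of 1000 bp, the median peak held 40.0 CpG dinucleotides among shared peaks (FLAG list), 16.0 among FLAG-only peaks and 15.0 among JMJD3-only peaks. A peak was called CpG-rich when observed over expected CpG was at least 0.6 and GC content at least 50%. Of the FLAG-only peaks 11.7% were CpG-rich against 37.02% of the shared peaks, a difference of -25.3 points (interval -27.4 to -23.2). Of the JMJD3-only peaks 5.48% were CpG-rich against 35.4%, a difference of -29.9 points (interval -31.6 to -28.1). JMJD3-only peaks were also poorer in CpG than FLAG-only peaks, by 6.21 points (interval 4.58 to 7.92).

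The peaks of 1 library only lay farther from genes' start sites, most of all the JMJD3-only peaks. The nearest transcription start site (TSS) was at a median of 1050.0 bp for shared peaks of the FLAG list, 4852 bp for FLAG-only and 8802 bp for JMJD3-only peaks. Within 5 kb of a TSS lay 71.7% of the shared peaks, 50.4% of the FLAG-only and 35.98% of the JMJD3-only peaks. FLAG-only peaks were thus 21.3 points below the shared peaks (difference -21.3, interval -23.9 to -18.6), and JMJD3-only peaks 35.8 points below them (difference -35.8, interval -38.1 to -33.5). The direct difference between FLAG-only and JMJD3-only peaks was 14.5 points (interval 11.6 to 17.3). The CpG difference was also seen among peaks near genes, since within 5 kb of a TSS 20.7% of FLAG-only, 12.5% of JMJD3-only and 45.1% of shared peaks (FLAG list) were CpG-rich.

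**Figure D1:**
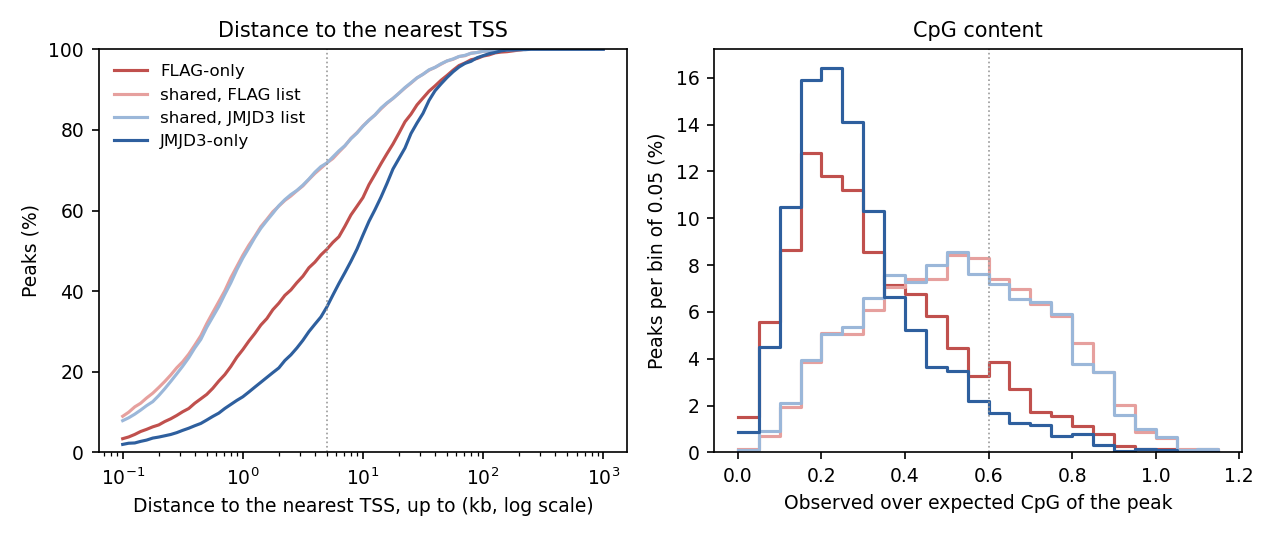
Left, cumulative share of peaks (%) against distance to the nearest TSS (kb, log scale), with a dotted line at 5 kb; right, share of peaks (%) per bin of observed over expected CpG, with a dotted line at 0.6. Lines stand for the 4 peak classes: the shared curves coincide at the left with 71.7% and 71.8% within 5 kb, FLAG-only peaks reach 50.4% and JMJD3-only peaks 35.98%.

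Much of both differences moved with score, most of all the TSS difference of FLAG-only peaks. Averaged over quartiles of the score within each list, the TSS difference was -6.60 points for FLAG-only peaks (-21.3 without this) and -20.3 points for JMJD3-only peaks (-35.8). The CpG difference was -10.6 points (-25.3) and -13.4 points (-29.9). The midpoint fell outside any gene for 45.9% of FLAG-only, 46.8% of JMJD3-only and 27.6% of shared peaks of the FLAG list. FLAG-only and JMJD3-only peaks did not differ in this beyond counting error (difference -0.897 points, interval -3.79 to 2.00).

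Many peaks of 1 library only flanked the mark of the other library. A JMJD3 peak lay within 5 kb of 16.4% of FLAG-only peaks and within 20 kb of 36.3%. A FLAG peak lay within 5 kb of 18.3% of JMJD3-only peaks and within 20 kb of 45.1%. The share at 20 kb was 8.80 points above that of FLAG-only peaks (interval 5.95 to 11.6). At 5 kb the difference was 1.84 points, with an interval that holds 0 (-0.373 to 4.01). When peaks of both libraries within 5 kb were joined, 7121 domains resulted, of which 3487 held peaks of both libraries, 1511 FLAG peaks alone and 2123 JMJD3 peaks alone. Of the 113 domains of both that spanned at least 10 kb, 70 held more JMJD3 peaks, 18 more FLAG peaks and 25 equal numbers. These wide domains together held more called peaks in the JMJD3 library, 430 against 332, while over all 3487 domains of both 309 held more JMJD3 peaks, 148 more FLAG peaks and 3030 equal numbers, and the JMJD3 list was 1.16 times as long.

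Close neighbours also stood among the best-scoring peaks of 1 library only. At Nkx1-1, a homeobox gene, the FLAG library had a peak over an exon at the TSS (chr5:33433474-33434473, score 38.4, percentile 89.2 of its list) and the JMJD3 library 1 beside it in the intron (chr5:33432159-33433158, score 84.5, percentile 93.7). The percentile is the rank of the score within the list, with 100 the highest. Where scores of both lists are printed side by side, only the percentiles are to be compared. Such neighbours also stood among the 10 best of both classes in the intergenic region at chr13:84345488-84346487 (FLAG-only) and chr13:84344404-84345403 (JMJD3-only), and in the intergenic region near Calcoco1 at chr15:102746608-102747607 (FLAG-only) and chr15:102745356-102746355 (JMJD3-only). Each of these pairs lies less than 1 kb apart and counts as 1 FLAG-only and 1 JMJD3-only peak, so genes are compared next by any peak within 5 kb of a TSS.

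Among the other leading FLAG-only peaks was that of Bmi1, a subunit of Polycomb repressive complex 1, with a score of 61.8 (percentile 96.5). It was called in 7 of the other 8 H3K27me3 libraries and missing only in day 5 wild-type cells with JMJD3. Thus both day 5 libraries with JMJD3 lacked it, while both day 10 libraries with JMJD3 held it. Nhlh1, a neuronal basic helix-loop-helix factor, had a FLAG-only peak with a score of 41.2 (percentile 90.6) that was called in 5 of the other 8, among them no library with JMJD3. Fgf9, a fibroblast growth factor, Sept9, a septin, Cfap206, a ciliary gene, and Sp8, a zinc finger factor of limb development, followed with scores of 38.97, 35.2, 34.99 and 33.7. The Fgf9 peak was called in all of the other 8 libraries, and Fgf9 also had a JMJD3 peak within 5 kb of a TSS (percentile 83.1). The Sept9 and Sp8 peaks were called in 6, among them 1 library with JMJD3 each, and the Cfap206 peak in 2, both with FLAG. The best FLAG-only peak of all (chrY:90814938-90815937, score 200.0) was called in none of the other 8 libraries, and 2.78% of FLAG-only peaks were over 50% soft-masked repeats, against 0.509% of shared peaks.

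Among the 10 best JMJD3-only peaks, that of Ebf2, which acts in neuronal and fat cell development, had a score of 87.3 (percentile 94.2), and that of Otp, a hypothalamic homeobox gene, 76.9 (percentile 92.3). Barhl2 and Pou4f2, homeobox genes of the retina and nervous system, had 70.4 and 67.5, Hoxa11 65.3 and the zinc finger repressor Gfi1 61.2. A JMJD3-only peak did not mean that the gene lacked the mark with FLAG: Otp, Barhl2 and Pou4f2 each also had a FLAG peak within 5 kb of a TSS (percentiles 39.1, 19.5 and 55.9), while Hoxa11 had none. In the other 8 libraries, the Otp peak was called in 8, the Ebf2 and Barhl2 peaks in 7, the Pou4f2 peak in 6, the Gfi1 peak in 5, the Nkx1-1 peak in 4, the Hoxa11 peak in 2 and the peak near Calcoco1 in 0. Another peak, chr8:50916077-50917076 (score 64.3), had no protein-coding TSS within 50 kb.

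Of 21951 protein-coding genes, 2383 had a peak within 5 kb of a TSS in both libraries, 613 in the FLAG library only and 469 in the JMJD3 library only. Although the JMJD3 list is longer, it marked fewer genes, 2852 against 2996. Of the genes with a FLAG peak 20.5% (interval 19.1 to 21.9) had no JMJD3 peak, and of those with a JMJD3 peak 16.4% (interval 15.1 to 17.8) had no FLAG peak, the background for each gene group that follows. Genes of 1 library only had weak peaks, with a median percentile of 32.4 for FLAG-only and 30.3 for JMJD3-only genes, against 72.4 and 74.7 for genes of both. Neighbouring genes can share a peak. The order of these shares turned with the lists' weaker peaks left out, since with the better-scoring 50% of each list they were 18.7% and 19.99%.

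Hox genes, which set position along the body axis, all had a peak in the JMJD3 library. Of the 39 genes of the 4 clusters, 31 had a peak in both libraries, 8 with JMJD3 only and 0 with FLAG only. The 8 are 20.5% of those with a JMJD3 peak, near the background of 16.4%, while the 0 without a JMJD3 peak stand against a background of 20.5%. Among the 8, Hoxa11 (percentile 89.6) and Hoxa3 (84.96) had the best JMJD3 peaks and Hoxd8 the weakest (23.5). Hox genes sit side by side and can share peaks, and all 39 genes together rest on 52 distinct FLAG and 68 distinct JMJD3 peaks.

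Counted over each whole cluster with 5 kb on either side, the FLAG library had 12 peaks at Hoxa, 21 at Hoxb, 19 at Hoxc and 14 at Hoxd. The JMJD3 library had 21, 28, 25 and 16. All 4 clusters held more JMJD3 peaks, 90 against 66 in all, while the whole JMJD3 list was 1.16 times as long as the FLAG list. At Hoxa the extra peaks lay largely in the stretch of Hoxa3 to Hoxa6, where the FLAG library had few.

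**Figure D2:**
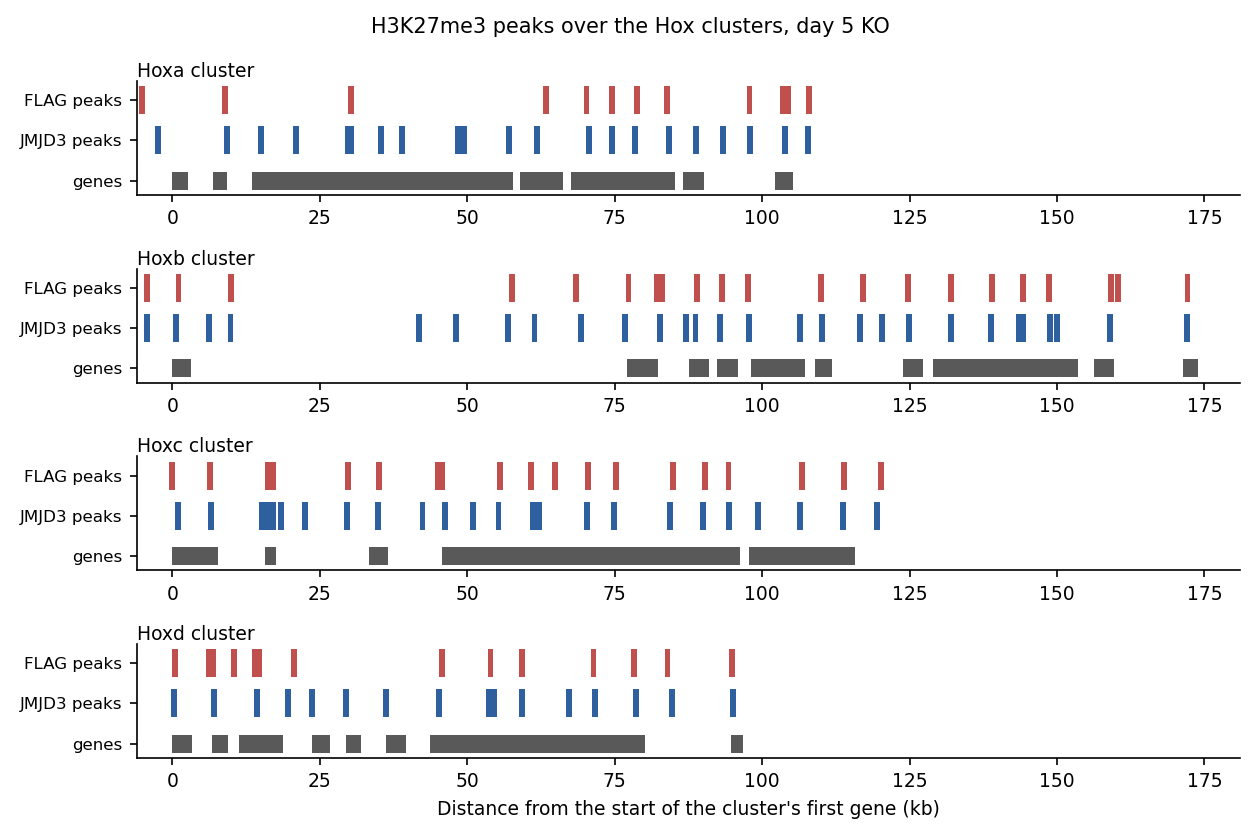
Peaks over the 4 Hox clusters in day 5 Jmjd3-/- cells, against distance from the start of the cluster's first gene (kb). Red boxes are FLAG peaks, blue boxes JMJD3 peaks and grey boxes annotated genes, which merge where their transcripts overlap; each cluster holds more JMJD3 peaks, with the widest gap at Hoxa (21 against 12).

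The other homeobox genes were marked in both libraries more often than marked genes in general. Of 102 genes, 94 had a peak in both libraries, 6 with JMJD3 only (Nkx2-3, Emx2, En1, Irx1, Irx2 and Alx1), 1 with FLAG only (Irx5) and 1 in neither. The 6 are 6.00% of those with a JMJD3 peak and the 1 is 1.05% of those with a FLAG peak, both below the background. En1, which patterns the midbrain, had the best of the 6 JMJD3 peaks (percentile 78.00). All 9 Pax genes and 23 of 26 forkhead genes had a peak in both libraries and none in 1 library only. Of the 14 T-box genes 9 were marked in both and 2 (Tbx15 and Tbx22) with JMJD3 only.

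Homeobox genes, like several other developmental lists, stood higher in rank in the JMJD3 list. Of the 94 other homeobox genes of both libraries, 79 had a best peak of higher percentile with JMJD3, with a median change of 12.2 percentile points. Of the 31 Hox genes 24 did, with a median change of 10.04 points, and of the 9 Pax genes 8, with 11.2 points. Of the lineage bHLH genes 19 of 25 did (median change 8.35 points), of the Sox genes 7 of 10 (6.99) and of the forkhead genes 17 of 23 (3.45). Over all 2383 genes of both libraries 1312 (55.1%) did, with a median change of 1.81 points. Percentiles depend on the length of the list, so the JMJD3 list was also shortened by score to the length of the FLAG list. The median change was then 8.98 points for other homeobox genes (74 of 94 higher), 6.53 for Hox genes (23 of 31) and 8.46 for Pax genes (8 of 9), against -0.483 over all genes. For lineage bHLH genes it was 6.49 points (17 of 25), for Sox genes 5.44 (6 of 10) and for forkhead genes 1.42 (15 of 23). The other homeobox genes also held 191 distinct JMJD3 peaks against 155 FLAG peaks. The part of peak number in the rank of the best peak was not tested. The best JMJD3 peak within 5 kb of a Hox TSS was at Hoxd13, the most posterior gene of its cluster, at percentile 97.5, against percentile 77.8 with FLAG.

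Epithelial genes stood lower in the JMJD3 list. Of 44 genes, 21 had a peak in both libraries, 6 with FLAG only, 1 with JMJD3 only and 16 in neither, so 22.2% of those with a FLAG peak had no JMJD3 peak, near the background of 20.5%. The 6 were the tight junction genes Cldn6 (percentile 83.2 of the FLAG list) and Marveld3 (44.7), the desmosome genes Dsp (63.8) and Pkp1 (48.8), the splicing factor Esrp2 (40.6) and the keratin Krt19 (7.44). The gene with a JMJD3 peak only was Prss8, a membrane protease (percentile 33.7).

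Among the 21 epithelial genes of both libraries, 14 did not have a higher percentile with JMJD3, and the median change was -5.57 points, against 1.81 over all genes. Cdh1, which encodes E-cadherin, had a FLAG peak with a score of 31.4 (percentile 83.8) and a best JMJD3 peak with 8.83 (percentile 28.6). Epcam, an epithelial adhesion gene, had scores of 64.5 (percentile 96.9) and 30.9 (percentile 75.7). Cldn3 stood at percentile 76.1 with FLAG and 18.7 with JMJD3, and St14, a membrane protease, at 74.5 and 20.6. Not all members shared this order: the junction gene Ocln had a percentile of 92.2 with FLAG and 94.4 with JMJD3, the splicing factor Esrp1 95.99 and 98.95, and the junction gene Cldn7 was near the top of both lists (99.5 and 99.4). With the JMJD3 list shortened to the length of the FLAG list, 19 of the 21 did not have a higher percentile, with a median change of -7.60 points.

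**Figure D3:**
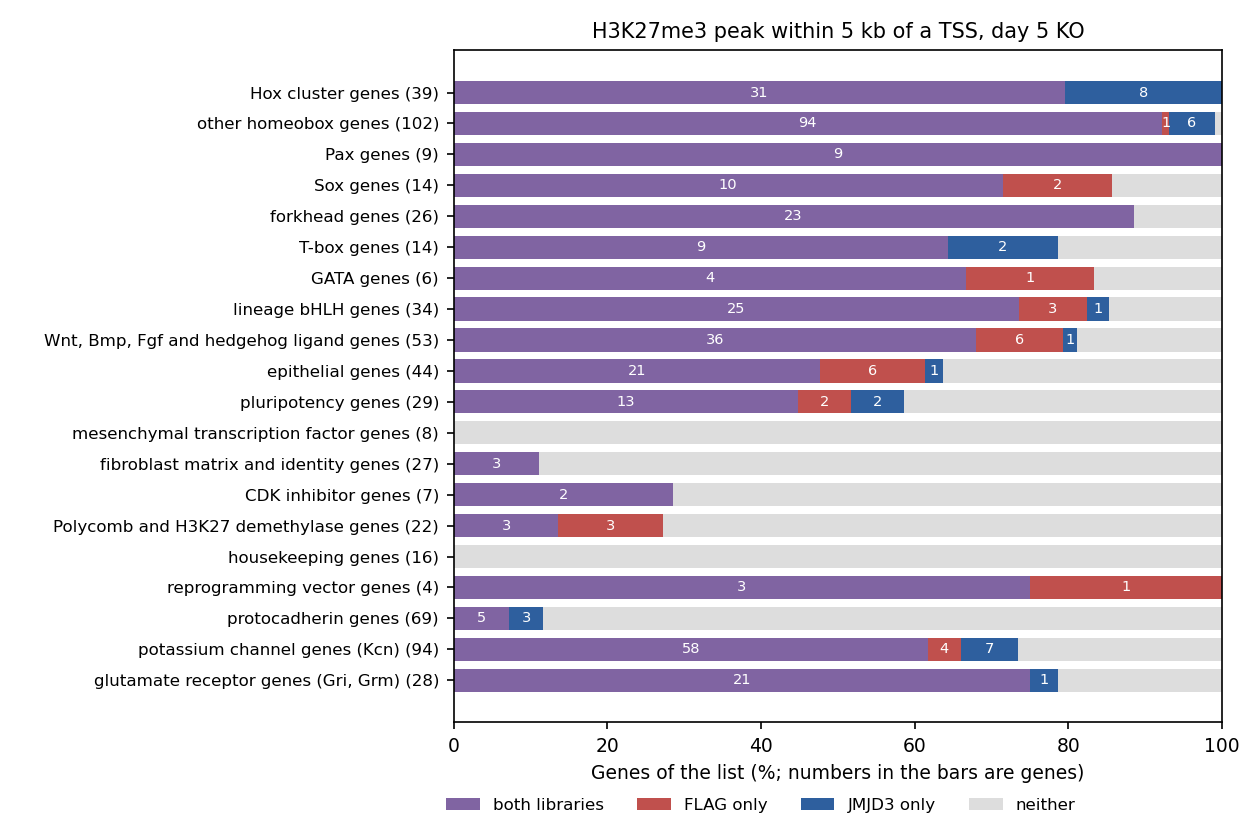
Share of the genes of each list (%), number of genes in parentheses, marked within 5 kb of a TSS in both day 5 Jmjd3-/- libraries (purple), with FLAG only (red), with JMJD3 only (blue) or in neither (grey). Hox genes add 8 in the JMJD3 library alone and 0 in the FLAG library alone, epithelial genes 1 and 6.

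Pluripotency genes were even: of 29, 13 had a peak in both libraries, 2 with FLAG only (Lefty1 and Dnmt3l), 2 with JMJD3 only (Tfcp2l1 and Lefty2) and 12 in neither. Esrrb, a nuclear receptor of the pluripotency network, had a best score of 73.6 (percentile 97.9) with FLAG and 200.0 (percentile 99.7) with JMJD3. Sall4 had 51.3 (percentile 94.4) and 70.9 (percentile 91.03), and Fgf4 115 (percentile 99.7) and 51.1 (percentile 85.4). Nanog and Zfp42 had no peak in either library.

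Of the signalling ligand genes (Wnt, Bmp, Fgf and hedgehog), 36 of 53 were in both, 6 with FLAG only (Wnt5a, Wnt8b, Wnt16, Bmp8b, Fgf2 and Fgf10), 1 with JMJD3 only (Fgf1) and 10 in neither. The 6 are 14.3% of the 42 with a FLAG peak and the 1 is 2.70% of the 37 with a JMJD3 peak, both below the background of 20.5% and 16.4%. Of 34 lineage bHLH genes 25 were in both, 3 with FLAG only (Nhlh1, Msc and Mesp2) and 1 with JMJD3 only (Neurod6). Of 14 Sox genes 10 were in both and 2 (Sox6 and Sox21) with FLAG only, and of 6 GATA genes 4 were in both and 1, Gata2, with FLAG only. Of 22 genes of the Polycomb complexes and the H3K27 demethylases 3 were in both and 3 (Bmi1, Cbx2 and Phf19) with FLAG only. The 3 are 50.0% of the 6 with a FLAG peak, against the background of 20.5%. With FLAG and with JMJD3, 6 and 6 of the 22 were marked in day 10 Jmjd3-/- cells. In wild-type cells 5 and 2 were marked at day 5 and 4 and 5 at day 10.

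Few fibroblast genes carried the mark in either library, as held for protein-coding genes in general, of which 2996 of 21951 had a peak with FLAG and 2852 with JMJD3. None of 8 mesenchymal transcription factor genes and none of 16 housekeeping genes had a peak in either, and 3 of 27 fibroblast matrix and identity genes had one in both. Of the 8 fibroblast markers used to check the label only Thy1 was marked, while 3 of 5 epithelial markers (Cdh1, Epcam and Ocln) and 2 of 4 pluripotency markers (Esrrb and Sall4) were marked in both libraries. These are marks, not expression, so the label of the cells could not be checked further. Of 7 CDK inhibitor genes, Cdkn1c and Cdkn2a (Ink4a/Arf, the senescence locus) were marked in both libraries and the others in neither. Of 69 protocadherin genes 5 were in both and 3 with JMJD3 only, of 28 glutamate receptor genes 21 and 1, and of 94 potassium channel genes 58 and 7, with 4 with FLAG only. Of 1135 olfactory receptor genes 1 was in both, 1 with FLAG only and 2 with JMJD3 only, of 397 zinc finger genes 14, 6 and 3, and of 331 vomeronasal receptor genes 0 had a peak.

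Sequence carried by the vectors touches a few genes. Kdm6b itself had a JMJD3 peak over an exon (chr11:69404871-69405870, score 40.8) and no FLAG peak. The same held in the day 5 wild-type and day 10 knockout pairs, while neither day 10 wild-type library had a peak there. Since the vector holds the mouse gene's coding sequence, reads from the vector and from the locus cannot be told apart. Of the 4 reprogramming genes, Sox2, Klf4 and Myc had a peak in both libraries and Pou5f1 with FLAG only (percentile 5.52).

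Ranks were compared over 3568 peaks shared 1 to 1. The median change in percentile from FLAG to JMJD3 was 2.59 points, and the 5th and 95th percentiles of the change were -33.1 and 42.2 points. These changes were not recomputed at equal list length, where the median change over genes turned from 1.81 to -0.483 points. The 5 that stood lower with JMJD3 by the widest margin lay at Pdgfa, a growth factor of mesenchymal cells (percentile 95.4 with FLAG, 1.28 with JMJD3), Nxph4 (92.5 and 7.98), Blcap (82.7 and 2.58), the homeobox gene Lhx9 (89.9 and 10.7) and Gp1bb (83.6 and 6.54). The 5 that stood higher lay at Nr5a2, a nuclear receptor of early embryos that can take the place of Oct4 in reprogramming (6.28 with FLAG, 93.2 with JMJD3), Duoxa2 (2.96 and 84.1), Lmx1b (8.33 and 89.1), Pax6 (6.08 and 82.8) and Epha6 (4.92 and 80.8). Lhx9, Nr5a2, Pax6 and Lmx1b each had another peak within 5 kb of a TSS, so their best peaks differed less, with percentiles of 89.9 and 68.99 for Lhx9, 68.9 and 93.2 for Nr5a2, 67.7 and 82.8 for Pax6 and 20.5 and 89.1 for Lmx1b. At the top of both lists stood the shared peaks of Tcf24, Amn, Fibcd1, Egr4, Wdr86, Mafa and Dgkz, with JMJD3 scores of 200.0 and FLAG scores from 109 to 155, and 3 peaks (nearest Gm10800, nearest Rpusd4, and 1 with no protein-coding TSS within 50 kb), all called in all 10 libraries.

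Genes with many peaks were largely the same in both libraries. Gm20388, a 4435 kb annotated span on chromosome 8, had 31 FLAG and 49 JMJD3 peaks, Fgfr2 (annotated over 2961 kb) 12 and 13, Cdh22 10 and 13, and Hoxc5, whose annotation spans part of its cluster, 10 and 12. Cux2, a homeobox gene, was among the 5 leading genes for FLAG only, with 9 against 6 peaks. Gm28308, an annotated transcript of 49.98 kb within Hoxa, was among them for JMJD3 only, with 11 against 2.

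The classes were also looked up in the other H3K27me3 libraries. A shared peak had by definition been called in both day 5 Jmjd3-/- libraries, and shared peaks had the higher scores. Their more frequent calling elsewhere is therefore not independent of how the classes were made. Shared peaks were called far more often elsewhere: in day 10 Jmjd3-/- cells with FLAG, 74.5% of shared against 26.5% of FLAG-only peaks (difference -48.01 points, interval -50.4 to -45.5), and in day 10 Jmjd3-/- cells with JMJD3, 71.7% of shared against 21.6% of JMJD3-only peaks (difference -50.1 points, interval -52.2 to -47.97). Averaged over score quartiles these differences were -25.4 and -23.1 points. In Jmjd3-/- MEFs before OSKM, 18.4% of FLAG-only and 11.7% of JMJD3-only peaks were already called (difference 6.70 points, interval 4.61 to 8.83). At least 1 of the other 8 libraries called 68.4% of FLAG-only, 63.3% of JMJD3-only and 98.05% of shared peaks (FLAG list).

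FLAG-only and JMJD3-only peaks were next set against each other within each library. In day 5 wild-type cells with FLAG, 40.3% of FLAG-only and 28.3% of JMJD3-only peaks were called (difference 12.1 points, interval 9.31 to 14.8), and with JMJD3 16.05% and 26.6% (difference -10.6 points, interval -12.9 to -8.23). In day 10 Jmjd3-/- cells the shares were 26.5% and 20.8% with FLAG (difference 5.66 points, interval 3.19 to 8.16) and 16.9% and 21.6% with JMJD3 (difference -4.66 points, interval -6.91 to -2.37). In day 10 wild-type cells they were 22.2% and 20.9% with FLAG, a difference of 1.33 points whose interval holds 0 (-1.05 to 3.74), and 8.60% and 11.2% with JMJD3 (difference -2.57 points, interval -4.27 to -0.831). The JMJD3 list is the shorter one in all 3 pairs, and shared peaks (FLAG list) were also called less often with JMJD3 than with FLAG, at 77.9% and 87.96% in day 5 wild-type, 71.3% and 74.5% in day 10 Jmjd3-/- and 51.4% and 70.3% in day 10 wild-type cells.

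**Figure D4:**
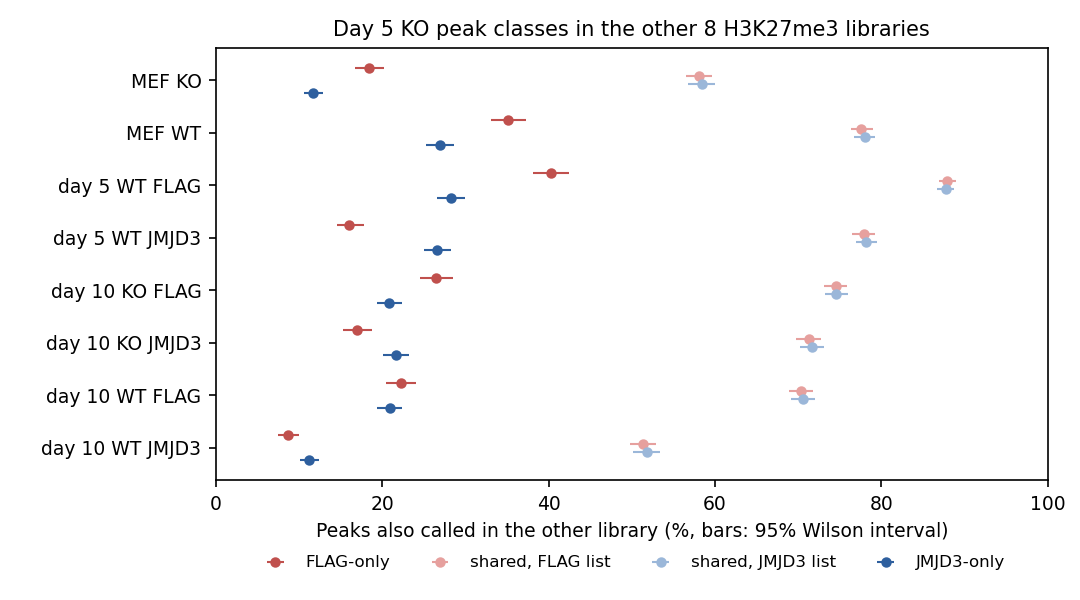
Share of each class of day 5 Jmjd3-/- peaks (%) also called in each of the other 8 H3K27me3 libraries (KO, Jmjd3-/-; WT, Jmjd3+/+), with 95% Wilson intervals as bars. Shared peaks lie far to the right in every library, and FLAG-only peaks lie above JMJD3-only peaks with FLAG at day 5 in WT cells (40.3% and 28.3%) and below them with JMJD3 (16.05% and 26.6%).

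Among peaks called in a second library with FLAG, the FLAG-only ones were more often absent with JMJD3 than the shared ones. Of the 505 FLAG-only peaks called at day 10 with FLAG in Jmjd3-/- cells, 322 (63.8%) were not called there with JMJD3, against 18.2% of 2783 shared peaks (difference 45.5 points, interval 41.02 to 49.8; mean over score quartiles 34.5 points). Of the 607 JMJD3-only peaks called there with JMJD3, 356 (58.6%) were not called with FLAG, against 14.4% of 2674 (difference 44.3 points, interval 40.1 to 48.3; mean over quartiles 30.7 points). In wild-type cells the same differences were 59.9 and 43.5 points at day 5 and 40.99 and 34.7 points at day 10. The means over quartiles were 50.7, 29.1, 27.8 and 20.4 points. All 6 differences had the same sign, for FLAG-only and JMJD3-only peaks alike. Both classes were weak peaks chosen for their absence from the other list. How often such peaks drop out between libraries of the same vector was not measured, so the shared sign does not show an effect of JMJD3.

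Few of the peaks held a binding site. KLF4 peaks of day 5 wild-type cells with JMJD3 lay in 73 FLAG-only peaks (3.83%) and 182 shared peaks (4.87%), a difference of -1.04 points whose interval holds 0 (-2.11 to 0.112); among the better-scoring 50% of each list it was 3.30 points. JMJD3-only peaks held one in 1.21%, below FLAG-only peaks by 2.62 points (interval 1.71 to 3.64), and also below them within 5 kb of a TSS (2.67% and 6.34%, difference 3.67 points, interval 1.86 to 5.58). FLAG-tagged JMJD3 sites of OSKM cells lay in 20 FLAG-only (1.05%), 18 shared (0.482%) and 6 JMJD3-only peaks (0.214%), a difference of 0.567 points between FLAG-only and shared peaks (interval 0.105 to 1.16). Sites of cells with low KLF4 lay in 1, 7 and 0 peaks. None of these sites came from Jmjd3-/- cells.

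The same classes were compared with those of the other FLAG and JMJD3 pairs. The share of JMJD3-only peaks within 5 kb of a TSS was 12.2 points below that of day 10 Jmjd3-/- cells (difference -12.2, interval -15.1 to -9.34) and 16.1 points below that of day 10 wild-type cells (difference -16.1, interval -19.6 to -12.5), but within counting error of day 5 wild-type cells (difference -2.57, interval -5.53 to 0.378). For FLAG-only peaks the same difference was 3.06 points from day 10 Jmjd3-/- cells (interval 0.0554 to 6.07), -1.10 points from day 5 wild-type cells (interval -3.97 to 1.77) and -2.33 points from day 10 wild-type cells (interval -5.19 to 0.523). FLAG-only peaks were less often CpG-rich than those of day 5 (difference -4.11 points, interval -6.03 to -2.13) and day 10 wild-type cells (difference -4.49 points, interval -6.41 to -2.52), and differed from those of day 10 Jmjd3-/- cells by 1.51 points (interval -0.357 to 3.42). JMJD3-only peaks were more often CpG-rich than those of day 5 wild-type cells (difference 1.54 points, interval 0.222 to 2.78) and less often than those of day 10 Jmjd3-/- (difference -5.28 points, interval -6.96 to -3.68) and day 10 wild-type cells (difference -5.52 points, interval -7.76 to -3.50). The genes with a FLAG peak but no JMJD3 peak were fewest in day 5 Jmjd3-/- cells, 20.5% against 25.1% (interval 23.5 to 26.7) at day 10, 31.8% (interval 30.2 to 33.4) in day 5 wild-type and 41.3% (interval 39.4 to 43.2) in day 10 wild-type cells. This order is that of the length of the JMJD3 list relative to the FLAG list, which was 1.16, 0.907, 0.788 and 0.593. With both lists of a pair at the length of the shorter one, the shares were 22.9%, 23.5%, 26.8% and 31.2%, and the day 5 and day 10 Jmjd3-/- intervals overlapped (21.4 to 24.4 and 21.95 to 25.2). Wild-type cells were of the strain C57BL/6J-OG2, so genotype and strain cannot be told apart.

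For the Hox clusters, the order in day 5 Jmjd3-/- cells was also that of day 10 Jmjd3-/- cells, with 51 FLAG and 77 JMJD3 peaks. In wild-type cells the numbers were 61 and 66 at day 5 and 47 and 43 at day 10. At equal list length JMJD3 had more in all 4 pairs, 84 against 66 in day 5 Jmjd3-/- cells, 77 against 47 in day 10 Jmjd3-/- cells, 66 against 56 in day 5 and 43 against 37 in day 10 wild-type cells. Epithelial genes with a peak were fewer with JMJD3 in each of the 4 pairs, 27 and 22 in day 5 Jmjd3-/- cells, 23 and 16 in day 10 Jmjd3-/- cells, 27 and 19 in day 5 and 23 and 11 in day 10 wild-type cells. All marked protein-coding genes were also fewer with JMJD3 in each pair. In the same order, epithelial genes changed by -18.5%, -30.4%, -29.6% and -52.2%, and all genes by -4.81%, -8.55%, -25.3% and -31.8%. At equal list length the epithelial changes were -18.5%, -27.3%, -26.9% and -31.2%, and those of all genes -10.8%, -4.82%, -17.7% and -8.43%.

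**Figure D5:**
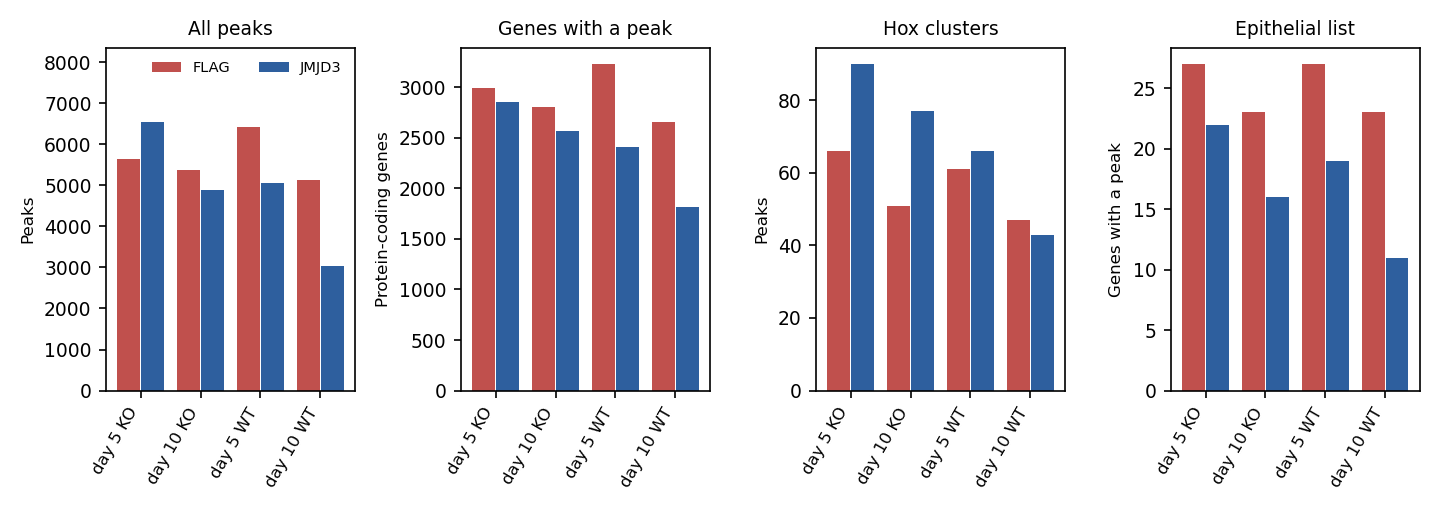
Numbers of H3K27me3 peaks, protein-coding genes with a peak within 5 kb of a TSS, peaks in the 4 Hox clusters and epithelial genes with a peak, for the FLAG (red) and JMJD3 (blue) library of each pair (KO, Jmjd3-/-; WT, Jmjd3+/+; 1 library per bar). Only in the day 5 KO pair does the JMJD3 library hold more peaks in all (6539 against 5643), while it holds fewer marked genes in each pair.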

How the data were processed

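H3K27me3 ChIP-seq peak lists of day 5 Jmjd3-/- cells with FLAG and with JMJD3 were used, with the 8 further H3K27me3 lists, 2 KLF4 and 2 JMJD3 lists of the series for comparison (6 of the 20 samples, without a list, were not used here). The authors mapped reads to mm10 (Bowtie2 2.2.0 in the submitters' processing notes). According to the study's methods they called H3K27me3 peaks with DFilter and KLF4 and JMJD3 peaks with MACS2. Each library used here has its own list. Drosophila cells served as spike-in, and whether this entered the peak calls is not given in the sources used here. The deposited H3K27me3 lists hold 1000 bp intervals with a score, used only to rank within a list, and the deposited KLF4 and JMJD3 lists hold positions.

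A shared peak had to overlap by 1 bp or more. TSSs and gene bodies came from GENCODE M21 basic and sequence from GRCm38, the build of mm10. A gene was marked when a peak overlapped the 5 kb on either side of a TSS. Each symbol of the gene lists matched an annotated gene. Members and lists were chosen with earlier results of these data known. Named genes were those of the lists, the nearest within 50 kb of the 10 best peaks per class, the 5 with most peaks within 5 kb of the gene, and the 5 largest changes in rank each way. The sequences printed were chosen after values were seen. Some genes are not reported here. With 1 library per group no p-value was computed. Alternatives covered the overlap rule, list length, score, chromosomes, TSS set and distance, and the CpG threshold. Overlaps were tested on simulated lists and checked with bedtools 2.31.1. Python 3.11.15, numpy 2.4.6, scipy 1.17.1 and matplotlib 3.10.9 were used.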

Additional observations from a re-analysis of the deposited data

Results flagged for a closer look

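In 4 quantities the day 5 Jmjd3-/- pair went one way from FLAG to JMJD3 and another pair the opposite way. With 1 library per group none of these differences was tested. Peaks called numbered 896 more with JMJD3 in day 5 Jmjd3-/- cells, and changed by -498 in day 10 Jmjd3-/- cells, -1364 in day 5 wild-type cells and -2086 in day 10 wild-type cells. The part of read depth in these numbers was not tested. Peaks in the 4 Hox clusters numbered 24 more with JMJD3 in day 5 Jmjd3-/-, 26 more in day 10 Jmjd3-/- and 5 more in day 5 wild-type cells, and changed by -4 in day 10 wild-type cells, where at equal list length JMJD3 had more (43 against 37). Hox genes with a peak within 5 kb of a TSS were 8 more in day 5 and 5 more in day 10 Jmjd3-/- cells, and changed by -2 in day 5 and -4 in day 10 wild-type cells. Other homeobox genes with such a peak were 5 more in day 5 Jmjd3-/-, 12 more in day 10 Jmjd3-/- and 2 more in day 5 wild-type cells, and changed by -17 in day 10 wild-type cells.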

How the results depend on the processing

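No paired analysis was possible because each group holds 1 library. Of 67 recomputed values for 11 results, 36 stayed within the interval of the value reported and 31 moved outside it. Of 41 recomputed differences, 39 kept their direction, and the exceptions were both for KLF4 peaks. An overlap of at least 50% of the peak gave 44.04% FLAG peaks and 52.00% JMJD3 peaks without a partner. Counting peaks within 1 kb as shared gave 31.1% and 40.3%, and a TSS difference of -38.5 points for JMJD3-only peaks. Counting those within 5 kb as shared, chosen after seeing the data, gave 28.2% and 35.1%. Lists of equal length gave 36.6% and 37.3%, and for genes 22.9% with a FLAG peak alone and 13.5% with a JMJD3 peak alone.

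The better-scoring 50% of each list gave 23.7% and 34.2% of peaks without a partner, and 18.7% and 19.99% of genes, so the order of the gene shares turned. There the TSS difference was -7.31 points for FLAG-only and -20.6 for JMJD3-only peaks, the CpG difference -19.6 points for FLAG-only peaks, the day 10 difference -27.8 points for FLAG-only and -30.2 for JMJD3-only peaks, and the KLF4 difference 3.30 points. Averaged over score quartiles, the TSS differences were -6.60 and -20.3 points, the CpG differences -10.6 and -13.4, the day 10 differences -25.4 and -23.1, and the KLF4 difference 0.340. A CpG threshold of 0.75 gave -13.4 points for FLAG-only and -14.3 for JMJD3-only peaks. A TSS window of 10 kb gave 18.2% of genes with a JMJD3 peak alone. Equal list lengths in the other pairs, and for ranks, were tried after seeing the data. The share of genes with a FLAG peak alone was then 26.8% in day 5 wild-type, 23.5% in day 10 Jmjd3-/- and 31.2% in day 10 wild-type cells. The median change in percentile over all genes turned from 1.81 to -0.483, while those of Hox, other homeobox, Pax and epithelial genes kept their sign.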
